A study of Mus musculus with 4 samples.

Results

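The cells described here are otic epithelial cells of the mouse embryo that hold transcripts of Sema3e, Aldh1a2 or Mylk3, and 658 of 14985 cells that passed the cell filter met the definition. A cell was first placed in an otic gate by its raw UMIs (unique molecular identifiers, each standing for 1 captured transcript). The otic gate asked for at least 1 Epcam UMI, at least 3 UMIs of Hmx2, Hmx3, Lmx1a and Oc90 together, 0 Trp63 UMIs and at most 2 Neurod1 UMIs, and 5278 cells passed it. Members were then chosen by measured UMIs of the selector genes: a member had at least 2 UMIs of the 3 selector genes together, at most 1 UMI of Otx1 and Otx2 together and at most 1 Rorb UMI. The 4 libraries came from E10.5 Swiss-Webster embryos at 34 to 36 somites, from which the otic vesicle, its ganglion and adjoining tissue were dissected before cells positive for GFP and negative for DAPI were sorted. Both control libraries had the genotype Pax2-Cre;Rosa26GFPf/+, and both conditional knockout (cKO) libraries Pax2-Cre;Tbx2f/f;Tbx3f/f;Rosa26Gfpf/+. Every group therefore carried the Cre driver and the reporter, and the sort selected for the Pax2-Cre lineage, whose driver is active beyond the ear. Leukocyte-marked cells were also present, 47 and 42 in control and 55 and 54 in cKO libraries. Whether every kept cell belonged to that lineage was not tested. The protocols name 3 control and 2 cKO embryos and pooled vesicles without saying which embryo went into which library, so p-values measure only the spread between libraries, which may be technical.

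The otic vesicle is a closed epithelial sac that is patterned into dorsal, lateral and ventral domains before the semicircular canals, the endolymphatic duct and the cochlea grow out of it. Aldh1a2 encodes a retinaldehyde dehydrogenase that makes retinoic acid, a diffusible ligand for nuclear receptors which is broken down by the Cyp26 enzymes, so that neighbouring cells can be sources and sinks. Sema3e encodes a secreted class 3 semaphorin that signals through Plxnd1, and Mylk3 encodes a myosin light chain kinase best known from heart muscle. Tbx2 and Tbx3 are T-box transcription factors that mostly act as repressors. Of the further markers of these cells, Bmp4 encodes a secreted growth factor, Gata2 a zinc finger transcription factor and Timp3 an inhibitor of metalloproteinases.

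In mm10, Aldh1a2 (ENSMUSG00000013584) lies on chromosome 9 from 71215789 to 71296243, Sema3e (ENSMUSG00000063531) on chromosome 5 from 14025276 to 14256689, and Mylk3 (ENSMUSG00000031698) on chromosome 8 from 85324303 to 85386345. The promoter windows of these 3 selectors are shown because they define the cells, and that of Gata2, from 88193891 on chromosome 6, because Gata2 was lower with Tbx2 and Tbx3 deleted. Each run is 300 bases of GRCm38.p6 from the RefSeq promoter table, 5′ to 3′ on the gene's strand and at the most upstream start listed, at chr9:71215539-71215838 (plus), chr5:14025026-14025325 (plus), chr8:85380992-85381291 (minus) and chr6:88193641-88193940 (plus). Capitals mark matches on either strand to 3 motifs, the T-box motif GGTGTGA, the GATA motif AGATAA and the TCF/LEF motif CTTTGA.
Aldh1a2: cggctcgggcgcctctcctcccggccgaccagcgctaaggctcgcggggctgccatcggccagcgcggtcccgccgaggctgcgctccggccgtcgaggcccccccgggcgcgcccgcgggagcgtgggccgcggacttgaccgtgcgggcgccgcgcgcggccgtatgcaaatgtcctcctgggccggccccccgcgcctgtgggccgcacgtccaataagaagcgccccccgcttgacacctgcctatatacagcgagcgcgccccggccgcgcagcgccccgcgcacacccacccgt
Sema3e: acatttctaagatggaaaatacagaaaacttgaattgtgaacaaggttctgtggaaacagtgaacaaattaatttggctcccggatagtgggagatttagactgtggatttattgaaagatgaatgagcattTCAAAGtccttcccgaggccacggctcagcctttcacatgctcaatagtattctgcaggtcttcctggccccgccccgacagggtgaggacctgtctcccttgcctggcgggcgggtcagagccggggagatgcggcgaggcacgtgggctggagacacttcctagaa
Mylk3: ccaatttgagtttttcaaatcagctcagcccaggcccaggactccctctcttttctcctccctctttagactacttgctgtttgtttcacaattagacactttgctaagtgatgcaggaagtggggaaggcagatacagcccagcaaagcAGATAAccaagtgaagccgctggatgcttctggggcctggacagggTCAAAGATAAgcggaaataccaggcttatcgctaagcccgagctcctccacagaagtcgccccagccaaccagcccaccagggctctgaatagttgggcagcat
Gata2: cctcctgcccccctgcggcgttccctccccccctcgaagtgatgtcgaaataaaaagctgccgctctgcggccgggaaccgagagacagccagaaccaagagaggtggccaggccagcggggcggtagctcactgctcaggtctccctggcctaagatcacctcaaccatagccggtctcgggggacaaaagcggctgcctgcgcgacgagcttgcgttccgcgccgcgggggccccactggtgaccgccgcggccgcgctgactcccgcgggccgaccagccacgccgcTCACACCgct
The Aldh1a2 window held none of the 3 motifs, and the Sema3e window held 1 TCF/LEF match. The Mylk3 window held 2 GATA matches and 1 TCF/LEF match, which overlaps the GATA match nearer the start. This window lies inside the mm10 span given above for Mylk3, downstream of its annotated 5′ end at 85386345. The window at the other listed start of Mylk3 held 1 TCF/LEF match, 0 T-box matches and 0 GATA matches. The Gata2 window held 1 T-box match, whereas the window at its other listed start held none of the 3 motifs. The windows of Bmp4 and Timp3, which also differed by genotype in members and are not shown, held none either. Over 32851 promoter windows of the same length, 3.98% held the T-box motif, 11.2% the GATA motif and 16.0% the TCF/LEF motif. A match is a run of letters and was not tested as a binding site.

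The control 1, control 2, cKO 1 and cKO 2 libraries held 4023, 3757, 3344 and 3861 kept cells. Library totals lay between 106769747 and 128205192 UMIs. The members had a median of 30322, 28085, 37239 and 34155 UMIs per cell in the same order, and the other otic-gate cells 33209.5, 31499, 39073 and 36387. Median mitochondrial shares of members were 2.25% and 2.88% in control and 1.31% and 1.41% in cKO libraries. Between 2 and 8 barcodes were shared by any pair of libraries, and members shared 0. The targeted genes came first as a check of the labels. Tbx3 was at 151 and 142 CPM (UMI counts scaled per 1e6 UMIs of the summed cells) in control members and 81.3 and 52.9 in cKO members, and Tbx2 at 61.5 and 55.9 against 45.3 and 63.9. Tbx3 therefore separated the genotypes in members, with a log2 fold change of -1.12 (SE 0.15, adjusted p = 0.00205), and Tbx2 did not (-0.03, SE 0.15, adjusted p = 0.934). In the other otic-gate cells Tbx2 was at 96.3 and 107 CPM in control and 69.3 and 67.0 CPM in cKO libraries. Tbx3 was at 56.3 and 53.3 against 21.8 and 17.6 CPM there. These 3′ tag counts do not say whether the floxed part of a transcript is present, so the counts of neither gene check the deletion itself. All adjusted p-values are from edgeR's quasi-likelihood test on counts summed per library and cell group, with Benjamini-Hochberg adjustment over all genes tested and a threshold of 0.05.

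The members made up the same share of the otic gate in both control libraries and a lower one in both cKO libraries. They numbered 301 of 1685 otic-gate cells in control 1 (17.9%, exact 95% interval 16.1% to 19.8%) and 268 of 1509 in control 2 (17.8%, 15.9% to 19.8%). The cKO 1 library held 36 of 771 (4.67%, 3.29% to 6.41%) and cKO 2 held 53 of 1313 (4.04%, 3.04% to 5.25%). Intervals cover counting error only, and the share is a description, because its definition uses genes whose own level differed by genotype. At the threshold, 102, 74, 19 and 34 members had exactly 2 selector UMIs, while 175, 107, 61 and 121 cells with 1 UMI stayed just outside in the same order of libraries. Oc90, an otolith protein gene that the otic gate counts, was at 745 and 1014 CPM in control members and 130 and 55.9 in cKO members, and at 348 and 519.5 against 43.6 and 34.7 CPM in the other otic-gate cells, so the denominator rests in part on a gene whose level differed, and its part in the share was not tested. With every otic-gate cell thinned to 10000 UMIs, which left 1671, 1483, 762 and 1308 cells that were deep enough, members were 6.64% and 8.50% in control and 0.787% and 0.688% in cKO libraries.

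**Figure D1:**
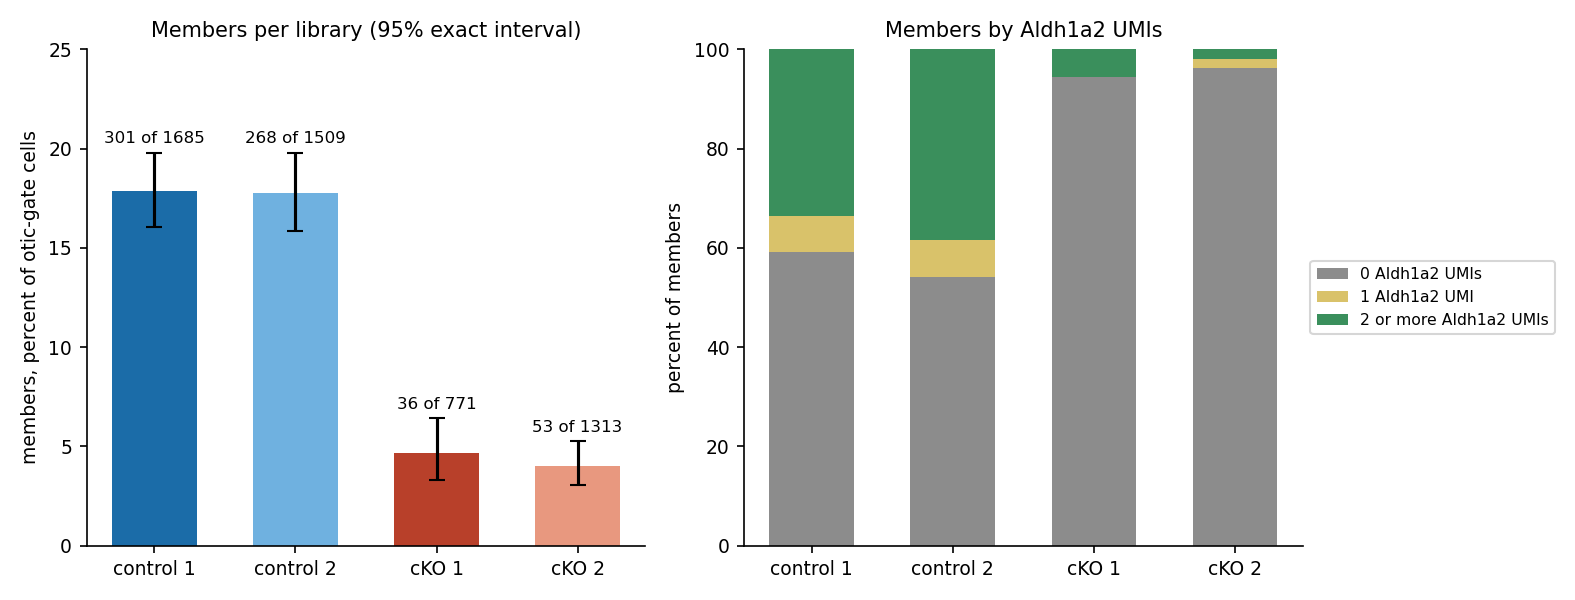
Left, members as percent of otic-gate cells in each library, bars with exact 95% binomial intervals (counting error only). Right, members of each library by their Aldh1a2 UMIs, in percent of members. The control libraries stand at 17.9% and 17.8% and the cKO libraries at 4.67% and 4.04%, and nearly all cKO members have 0 Aldh1a2 UMIs.

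The 3 selectors did not mark the same cells. In control 1, 53.2% of members had a Sema3e UMI, 40.9% an Aldh1a2 UMI and 63.5% a Mylk3 UMI, and in control 2 these were 64.9%, 45.9% and 58.6%. Sema3e and Mylk3 without Aldh1a2 was the commonest pairing, in 29.9% and 31.7% of control members. Aldh1a2 with Mylk3 and no Sema3e was found in 5.32% and 3.73%. Among Epcam-negative leukocyte-marked cells, which should lack these genes, 0 of 47 and 0 of 42 control cells had an Aldh1a2 UMI. That allows shares of up to 6.38% and 7.14%, at median depths of 40596 and 38358.5 UMIs. A Sema3e UMI was found in 0 of 47, 1 of 42, 0 of 55 and 0 of 54 such cells of control 1, control 2, cKO 1 and cKO 2. For Mylk3 these numbers were 0, 0, 1 and 1. The gate gene Oc90 had a UMI in 6 of 47 and 5 of 42 of them in control and in 0 of 55 and 1 of 54 in cKO libraries. What this means for the otic gate was not tested.

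Read over all members, Aldh1a2 was the selector that was low in the cKO libraries. Its level was 62.0 and 78.0 CPM in control members and 2.88 and 1.50 CPM in cKO members, where 2 of 36 and 2 of 53 cells had any UMI. Control members held 31.5 and 43.9 CPM of Sema3e and cKO members 33.8 and 30.5 CPM, and Mylk3 at 44.8 and 43.3 against 40.3 and 37.0 CPM, so Sema3e overlapped between genotypes and Mylk3 was a little lower in both cKO libraries. These levels are set in part by the definition. Aldh1a2 was therefore also read in cells gated on Sema3e and Mylk3 alone, which numbered 215 and 198 in control and 34 and 52 in cKO libraries. There Aldh1a2 reached 25.6 and 41.9 CPM in both control libraries, 0 in cKO 1 and 0.506 CPM in cKO 2, from 1 UMI (log2 fold change -5.94, SE 0.77, adjusted p = 0.000731 with edgeR). That difference was chosen after the members' values were seen. Each other selector was likewise read in cells gated on the remaining 2 selectors. Sema3e was at 23.2 and 36.9 CPM in control and 12.6 and 6.08 CPM in cKO libraries, the latter from 10 and 5 UMIs. Mylk3 was at 24.6 and 28.1 CPM in control and 24.6 and 3.31 CPM in cKO libraries, the latter from 19 and 3 UMIs. This reading had Sema3e lower in both cKO libraries and Mylk3 clearly lower in cKO 2 only, and it was not tested.

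The further markers behaved differently from each other. In control members Gata2 was at 42.8 and 50.9 CPM, Bmp4 at 106 and 95.6 CPM and Timp3 at 58.0 and 47.4 CPM. The other otic-gate cells of these libraries had 15.7 and 13.7 CPM of Gata2, 34.5 and 32.7 of Bmp4, and 5.69 and 6.27 of Timp3. In cKO members Timp3 was at 5.75 and 4.5 CPM and Gata2 at 13.7 and 17.0, both below the 2 control member values, whereas Bmp4 was at 151 and 174, above them. The genotype difference within members was -3.31 on the log2 scale for Timp3 (SE 0.26, adjusted p = 0.000107), -1.53 for Gata2 (SE 0.19, adjusted p = 0.00119) and 0.74 for Bmp4 (SE 0.10, adjusted p = 0.00235). Each of the 6 markers was above the other otic-gate cells of the same library in all 4 libraries, also Timp3 in cKO members (other cKO cells 0.749 and 0.881 CPM) and Aldh1a2 (0.0977 and 0.102 CPM). For the 3 selectors that difference follows from the definition. The 12 otic epithelial markers, of which the otic gate uses 5, summed to 2366 and 2524 CPM in control members and 1557 and 1691 in cKO members, with none at 0.

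**Figure D2:**
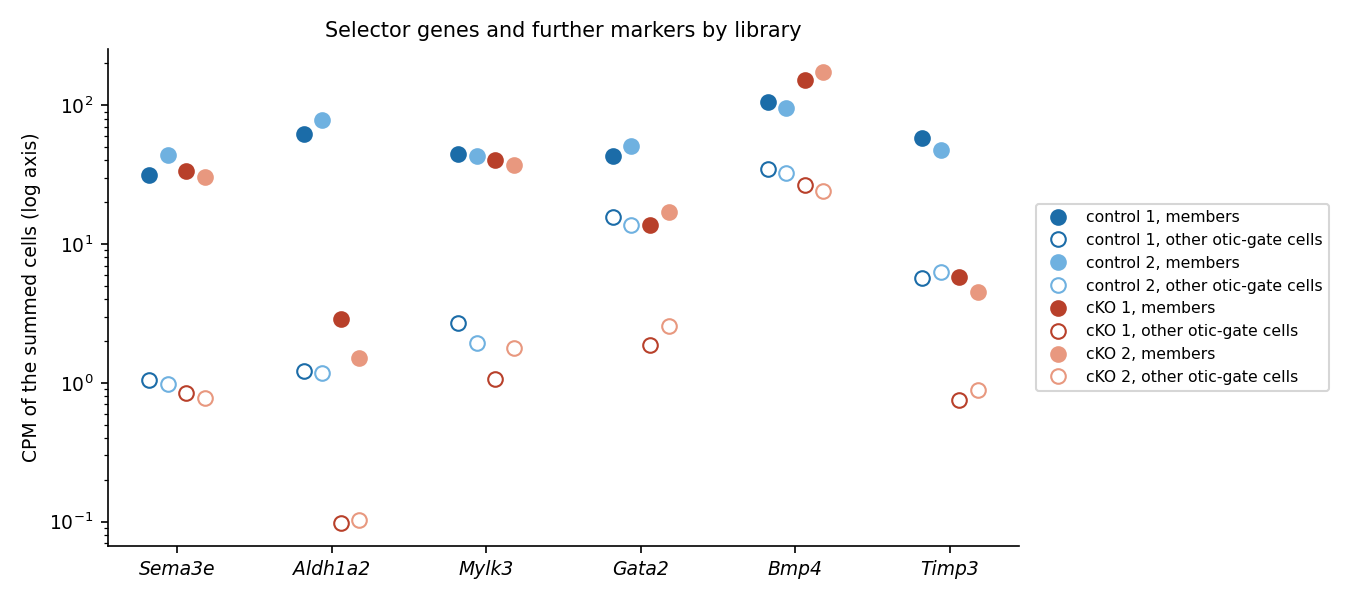
CPM of the 3 selector genes and 3 further markers in members (filled) and other otic-gate cells (open) of each library, on a log axis. Bmp4 stays high in cKO members, while Aldh1a2 falls to 2.88 and 1.50 CPM and Timp3 to 5.75 and 4.5 CPM. Sema3e and Mylk3 are high there by the definition, because nearly all cKO members qualified through these genes. Read in cells gated on the remaining selectors, Sema3e was lower in each cKO library and Mylk3 clearly lower in cKO 2 only. Those gates count Aldh1a2 and so take unlike cells in the 2 genotypes.

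Members were also alike in genes that the definition did not use. In a space of principal components built without the gate genes and markers, 52.9% and 62.8% of the 20 nearest neighbours of a control member were members, against 10.2% and 9.09% for other otic-gate cells. In the cKO libraries these shares were 23.2% and 24.1% against 2.93% and 2.60%. The remaining cells, which meet the same Otx and Rorb limits but hold fewer than 2 selector UMIs, were 59.9% and 56.1% of the control otic gate and 43.0% and 31.7% of the neighbours of control members. Otx-positive cells were 18.7% and 21.3% of that gate and 3.12% and 4.37% of these neighbours. In the cKO libraries the remaining cells were 92.5% and 93.8% of the gate and 73.6% and 72.8% of the neighbours of members.

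Control members were also split by their Aldh1a2 UMIs, into Aldh1a2-high members with at least 2 and Aldh1a2-undetected members with 0. The first numbered 101 and 103 in the control libraries and the second 178 and 145, while 22 and 20 members with 1 UMI entered neither group. The split uses a selector, so a member with 0 Aldh1a2 UMIs had to hold at least 2 of Sema3e and Mylk3 together, and Mylk3 was at 8.81 and 9.07 CPM in Aldh1a2-high and 63.2 and 59.6 CPM in Aldh1a2-undetected members. In cKO libraries there were only 2 and 1 with at least 2, against 34 and 51 with 0. Between the control groups, 512 genes were higher and 707 lower in Aldh1a2-high members, so 10.9% of 11133 genes tested were called (4.6% higher and 6.35% lower). The groups differ in Mylk3 as well as in Aldh1a2, so these calls cannot be assigned to either gene. Aldh1a2-high members summed to 2952818 and 2646700 UMIs and Aldh1a2-undetected members to 6170233 and 5082643, so the latter were deeper per cell. The part of depth in the calls was not tested. This comparison was added after the data were examined, and DESeq2 called 175 genes in it, all among the 1219. It could not be run without either control library, because 1 library leaves no residual spread.

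Higher in the Aldh1a2-high members were Neto1, which encodes an auxiliary subunit of glutamate receptors, Cldn11, a claudin of tight junctions, and the transcription factor genes Six2 and Irx1. Neto1 was at 21.7 and 33.6 CPM in the Aldh1a2-high members and 0.648 and 0.197 CPM in the Aldh1a2-undetected ones (log2 fold change 5.31, SE 0.40, adjusted p = 8.61e-09 with edgeR). Cldn11 was at 33.2 and 43.5 CPM against 1.30 and 0.984 CPM. Irx1 was at 117 and 95.6 CPM against 15.4 and 12 CPM, and Spp1, which encodes the secreted matrix protein osteopontin, at 112 and 86.5 against 11.0 and 9.84 CPM. Lrp2, the endocytic receptor megalin, was at 58.2 and 80.5 CPM in the Aldh1a2-high members and 11.3 and 12.6 CPM in the others.

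Higher in the Aldh1a2-undetected control members were Wnt6, a secreted WNT ligand, and Msx1 and Msx2, homeobox genes that respond to BMP. Wnt6 was at 3.05 and 1.89 CPM in Aldh1a2-high members and 82.3 and 84.8 CPM in Aldh1a2-undetected members (log2 fold change -4.95, SE 0.21, adjusted p = 1.41e-11 with edgeR). Msx2 was at 10.8 and 15.5 CPM against 99.2 and 78.5 CPM, and Msx1 at 16.9 and 6.42 against 96.9 and 83.6 CPM. Pthlh, a secreted peptide related to parathyroid hormone, was at 4.06 and 3.78 CPM against 35.8 and 44.9 CPM. Rdh10, the enzyme that makes the retinaldehyde used by Aldh1a2, was at 1.69 and 1.13 CPM against 28.7 and 14.2 CPM.

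The gene lists gave the following counts, beside 4.6% higher and 6.35% lower over all genes tested in the split. Of 20 BMP pathway genes tested, 10 were lower and 1 higher in Aldh1a2-high members, with a list median of -0.47 on the log2 scale beside 0.0018 over all genes tested. Of 21 WNT pathway genes, 11 were lower and 4 higher, the 4 being Wnt11, Sfrp1, Wnt5a and Fzd3. Of 9 dorsal otic genes, 7 were lower and 0 higher. Among 12 retinoic acid genes 6 were lower, and 1, the binding protein Crabp2, was higher at 575 and 470 CPM against 311 and 287 CPM. Of 20 G2 and M phase genes, 15 were lower by at most 0.65 on the log2 scale, whereas 0 of 20 S phase genes were called. Markers of other cell types were read beside these counts. Wnt6 also stands on the surface ectoderm list, of which Perp was the other gene tested and was lower too, and the list summed to 78.4 and 69.1 CPM in control members. Of its other genes Krt5, Krt14 and Krtdap had 0 UMIs in members of both control libraries, Grhl3 and Krt15 had 0 in control 2 but not in control 1, and Trp63 was at 0 by the definition. Of 4 sensory neuron genes tested 1 was higher and 2 were lower, of 7 neural crest or glia genes 1 was higher and 2 were lower, and the part of these genes in the split was not tested.

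**Figure D3:**
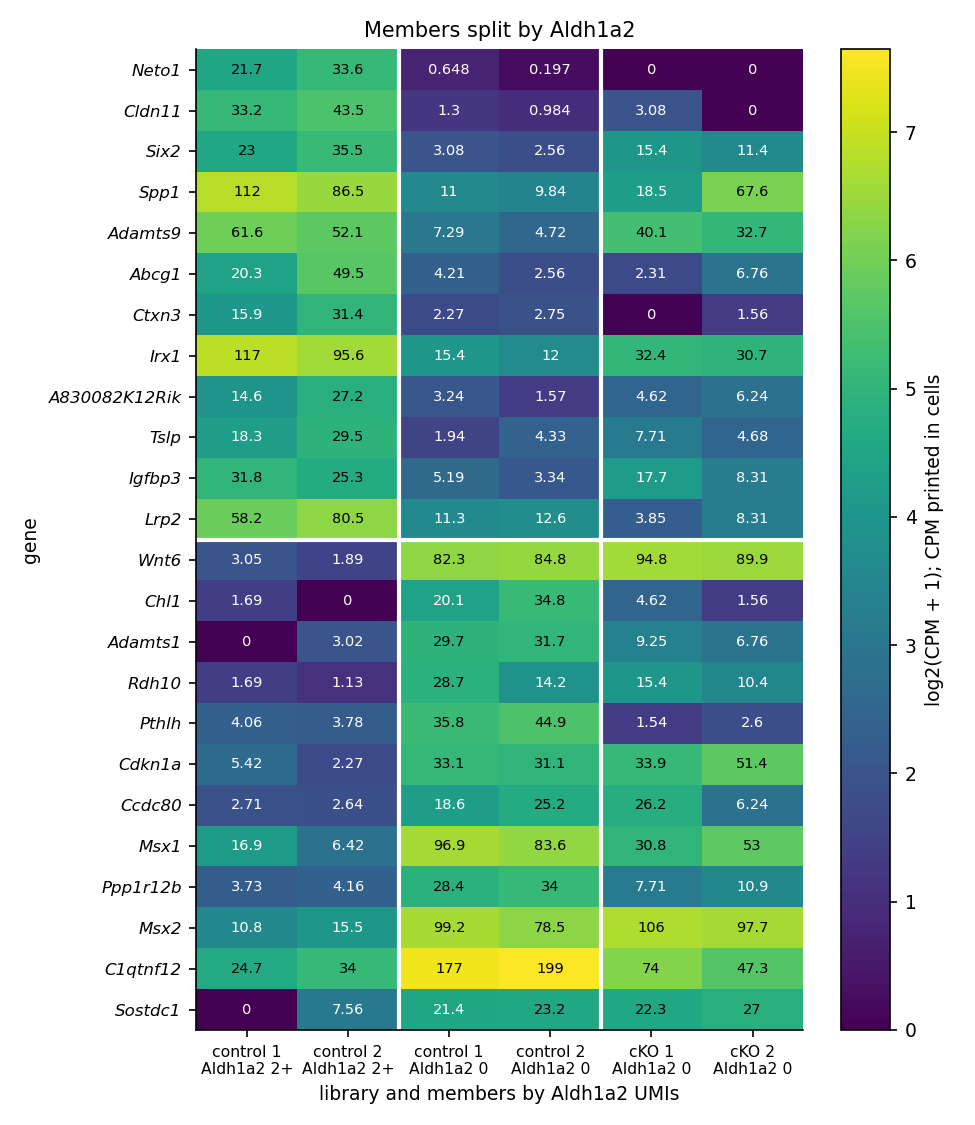
Level of 24 genes that differed most between control members with at least 2 Aldh1a2 UMIs and members with 0, with the cKO members that have 0 in the columns on the right. Colour is log2(CPM + 1) and each cell prints the CPM of that library. Genes of the upper block are high in the left 2 columns, and Wnt6, Msx2 and Sostdc1 are as high in cKO as in control members with 0 Aldh1a2 UMIs.

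The cKO members with 0 Aldh1a2 UMIs were near the Aldh1a2-undetected control members in some of these genes and not in others. Wnt6 was at 94.8 and 89.9 CPM there, Msx2 at 106 and 97.7 CPM and Sostdc1, a secreted BMP and WNT antagonist, at 22.3 and 27.0 CPM, beside 21.4 and 23.2 CPM in the control cells. Pthlh was at 1.54 and 2.60 CPM, below both control values. Some genes of the Aldh1a2-high set were present in these cells without Aldh1a2. Adamts9, a secreted metalloproteinase, was at 40.1 and 32.7 CPM in cKO and at 7.29 and 4.72 CPM in control members with 0 Aldh1a2 UMIs (log2 fold change 2.53, SE 0.25, adjusted p = 0.00045 with edgeR), while Neto1 was at 0 in both cKO libraries.

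Compared with the other otic-gate cells of the same library, the control members were high in Plxna4, Apobec2, Chrna4 and Bmper. Plxna4, a plexin that serves as signalling receptor for class 3 semaphorins, was at 62.3 and 71.4 CPM in members and 8.89 and 9.53 CPM in other cells (log2 fold change 2.83, SE 0.08, adjusted p = 1.22e-15 with edgeR). Chrna4, a nicotinic acetylcholine receptor subunit, was at 23.7 and 27.5 CPM against 4.24 and 5.73. Bmper, a secreted BMP-binding protein, was at 26.1 and 23.9 CPM against 5.14 in both libraries. Meis1, a homeobox gene, was at 48.1 and 61.3 CPM against 11.9 and 13.9, and Zfp503, a zinc finger repressor, at 113 and 126 against 30.2 and 33.6. All told, 980 genes were higher and 1183 lower among 14473 tested, 14.9%. With control 1 left out 971 genes were called and with control 2 left out 799, fits in which only the cKO libraries give the spread. DESeq2 called 833.

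Genes lower in the control members included early otic and neurosensory regulators. Pax2, the paired box gene from which the driver takes its promoter, was at 13.3 and 15.8 CPM in members against 71.7 and 87.9 in other cells (log2 fold change -2.46, SE 0.09, adjusted p = 6.27e-14 with edgeR). Emx2 was at 2.05 and 3.62 CPM against 18.3 and 27.7, Gbx2 at 10.2 and 10.6 against 52.3 and 53.2, and Irx5 at 10.3 and 15.8 against 75.8 and 90.7, all 3 being homeobox genes. Crym, which encodes a thyroid hormone binding protein, was at 1.64 and 3.14 CPM against 40.1 and 54.6. Lfng, a glycosyltransferase that tunes Notch receptors, was at 2.56 and 3.5 CPM against 21.6 and 18.8, and Fst, the secreted activin antagonist follistatin, at 3.38 and 2.17 against 17.1 and 26.3. Ttr, for transthyretin, had a large fitted fall, but its level in other cells was 3.77 CPM in control 1 and 84.0 CPM in control 2, so 1 library carries it, and without control 2 the call was lost (log2 fold change -1.30, adjusted p = 0.514 with edgeR).

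**Figure D4:**
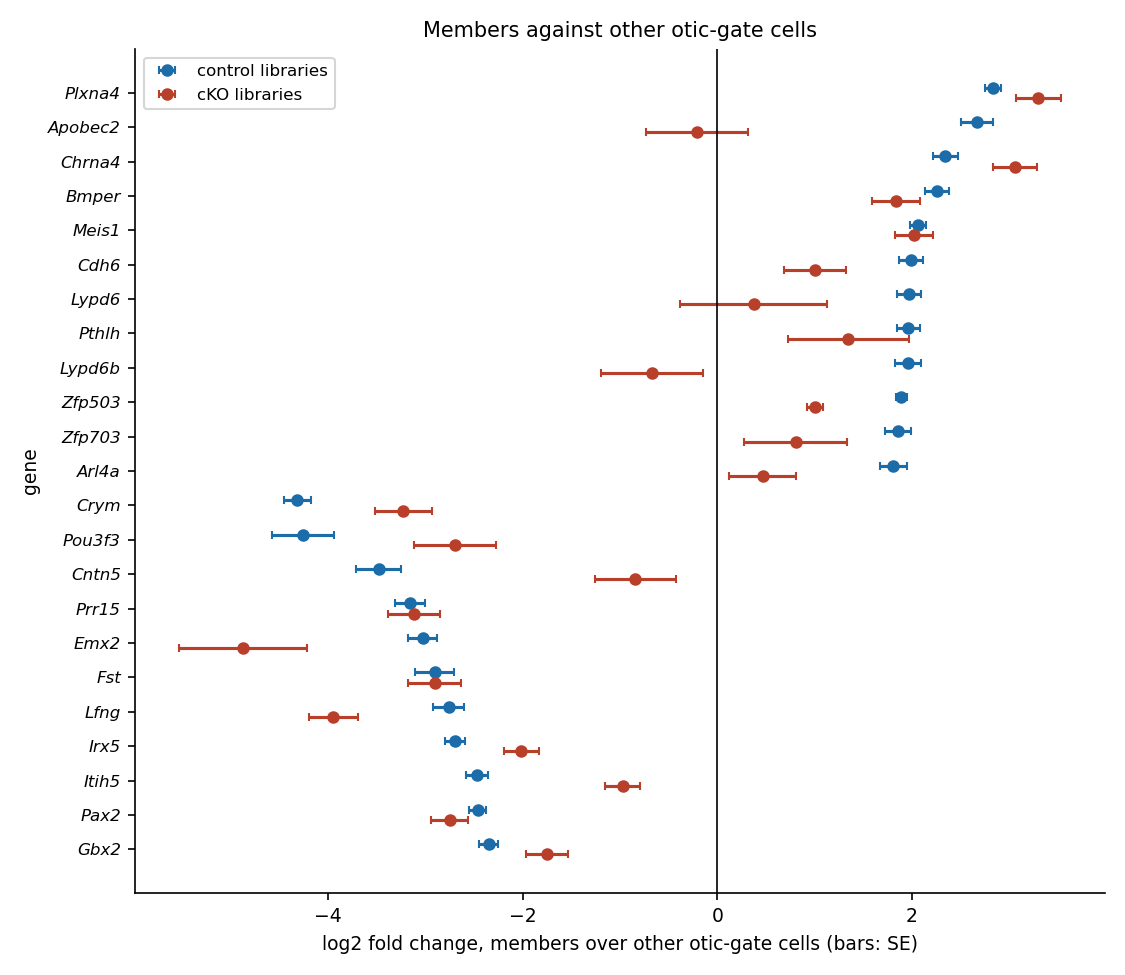
Log2 fold change of members over other otic-gate cells with its standard error, in control and cKO libraries, for the genes with the largest differences in control libraries (Ttr, carried by 1 library, is left out). Plxna4, Chrna4 and Bmper lie to the right in both genotypes, and Apobec2 and Lypd6b are near or below 0 in cKO libraries.

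Regional gene lists were read next, beside 6.77% of all genes called higher and 8.17% lower. Of 17 ventral and neurosensory genes tested, 11 were lower and 3 higher in control members, with a list median of -1.52 beside -0.0039 over all genes. The limits on Otx1, Otx2 and Rorb bear on this count, since the other cells include the Otx-positive ones. Against the remaining cells alone, which meet the same limits, 11 of 17 were also lower and 3 higher. The LIM-domain genes Lmo4 and Isl1 were higher, Isl1 at 44.6 and 50.1 CPM against 21.2 and 23.9 CPM, and the neuronal determination gene Neurog1 was lower at 0.922 and 0.483 against 5.47 and 3.44 CPM. Of 12 dorsal genes, 6 were higher, among them the homeobox gene Meis2 at 356 and 395 CPM against 120 and 125, and 4 lower, among them Gbx2. Of 17 canal and lateral wall genes, 7 were higher and 8 lower, so neither of these lists went mainly one way. Tbx1 was at 132 and 145 CPM against 87.5 and 94.6, Tbx3 at 151 and 142 against 56.3 and 53.3, and Tbx2 in the opposite direction at 61.5 and 55.9 against 96.3 and 107 CPM. Prrx2, a paired-type homeobox gene, was at 151 and 104 CPM in members against 45.3 and 36.1.

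Signalling lists split by pathway. Of 24 BMP pathway genes, 12 were higher and 5 lower in control members, among the rises Bmper and the target gene Msx2 at 70.3 and 58.1 CPM against 23.7 and 27.7. In the Aldh1a2-high members alone, at the levels given above, Msx2 was below these other cells. The ligand Bmp2 was at 3.18 and 6.89 CPM against 1.47 and 1.22 and lost its call without control 2 (adjusted p = 0.411 with edgeR). Of 22 FGF pathway genes, 12 were lower and 2 higher. The ligand Fgf3 was lower at 1.02 and 1.21 CPM against 9.48 and 5.39, and the ligand Fgf16 was higher at 5.02 and 4.95 CPM against 1.24 and 1.17, a call lost without control 1 (adjusted p = 0.131 with edgeR) or control 2 (0.135). Of 17 Notch genes, 8 were lower and 2 higher, and the ligand Jag1 was at 15.7 and 12.9 CPM against 44.4 and 45.7. Of 29 WNT genes, 13 were lower and 6 higher. The ligand Wnt5a was at 40.2 and 41.9 CPM in members against 17.1 and 16.5, and the antagonist Sfrp1 at 34.6 and 37.3 against 168 and 191 CPM. Hedgehog genes gave 2 higher and 4 lower of 11. The share called over all genes was 6.77% higher and 8.17% lower.

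Of 17 retinoic acid genes tested, which leave out Aldh1a2, 7 were lower and 2 higher in control members (8.17% and 6.77% over all genes). Cyp26a1, which breaks retinoic acid down, was at 0.615 and 0.846 CPM in members and 13.5 and 14.0 CPM in other cells (log2 fold change -4.19, SE 0.26, adjusted p = 1.37e-10 with edgeR). The alternative synthesis enzyme Aldh1a3 was at 11.5 and 11.1 CPM against 30.0 and 37.2, and Rdh10 at 18.9 and 9.67 against 37.9 and 47.3. The breakdown enzyme Cyp26b1 went the other way, at 6.35 and 4.71 CPM against 3.24 and 2.36, a call lost without control 1 (adjusted p = 0.154 with edgeR) or control 2 (0.0995).

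Of 29 semaphorin, plexin and neuropilin genes, 7 were higher and 4 lower in control members, and over all genes 6.77% were higher and 8.17% lower. The ligands Sema3c and Sema3d were higher, at 8.30 and 10.8 against 3.32 and 4.17 CPM and at 12.9 and 13.7 against 4.49 and 5.85 CPM. The coreceptor Nrp2 was at 9.32 and 8.58 CPM against 21.7 and 29.1. Plxnd1, the receptor of Sema3e, was at 1.64 and 2.78 CPM against 1.55 and 0.780, and this difference did not pass the test (adjusted p = 0.213). Of 27 matrix genes 9 were higher and 3 lower, with fibronectin (Fn1) at 251 and 338 CPM against 98.0 and 97.7. Of 23 actomyosin genes, 6 were higher and 5 lower, a split with no common direction. S phase genes were lower in 9 of 20 and higher in 0, and G2 and M phase genes higher in 6 of 20 and lower in 0, with no log2 change over 0.46 among them. Dissociation stress genes gave 2 lower of 10.

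The members were also set against the 3 other groups that divide the otic gate of control libraries. In a fit over the 4 groups that divide the control otic gate, 16.6% of 13103 genes were called against Otx-positive cells (8.66% higher and 7.96% lower). Against Rorb-positive cells 13.7% were called (7.3% higher and 6.35% lower), and against the remaining cells 17.5% (8.04% higher and 9.45% lower). Plxna4 and Apobec2, a member of the cytidine deaminase family, were among the 12 largest rises in each of these 3 comparisons. Against Otx-positive cells Msx2 and Dkk1, a secreted WNT antagonist, rose by 4.43 and 4.35 on the log2 scale. The Rorb-positive group was small, at 60 and 73 cells, and the Otx and Rorb limits of the definition set its contrast in part.

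In the cKO libraries, 751 genes were higher and 1318 lower in members than in the other otic-gate cells, 14.3% of 14473 (5.19% higher and 9.11% lower). Of the 980 genes higher in control members 381 were also higher in cKO members, which is 38.9% of the control set and 50.7% of the cKO set, and 11 were lower. Plxna4 was at 23.7 and 24.0 CPM in cKO members against 1.86 and 2.46 in other cells (log2 fold change 3.30, SE 0.23, adjusted p = 3.08e-09 with edgeR). Chrna4 was at 25.9 and 25 CPM against 2.31 and 3.14, and Msx2 at 98.5 and 93.9 against 12.7 and 14.7. Pax2 was at 5.75 and 12 CPM against 59.2 and 58.8, and Lfng at 3.60 and 3.5 against 45.3 and 55.1. Of 24 BMP pathway genes 11 were higher and 1 lower, and of 17 Notch genes 8 were lower and 0 higher. Leukocyte markers summed to 145 CPM in cKO 2 members, with C1qb at 44.0, against 0 in cKO 1 members and 3.18 and 3.75 CPM in control members, and their part in the cKO values was not tested. With cKO 1 left out 1198 genes were called, with cKO 2 left out 1304.

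Within members, 398 genes were higher and 318 lower in cKO than in control, 6.18% of 11590 tested. In the other otic-gate cells, where far more cells were summed, the same comparison called 34.8% of 14949, or 5209 genes, and 2334 with control 2 left out. Whether the number of calls goes with the number of cells summed was not tested. The sums were 1390434 and 2001946 UMIs for cKO members and 9759678 and 8276916 UMIs for control members. Leaving out control 1 or control 2 left 331 genes called in each case, leaving out cKO 1 gave 1092, and DESeq2 called 363. Ubb, a polyubiquitin gene, was at 206 and 256 CPM in control and 1626 and 1815 CPM in cKO members. In other cells Ubb was at 219 and 265 against 1909 and 2067 CPM, a difference of like size outside the members, and its part in the other differences was not tested.

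Genes lower in cKO members included Lypd6, Pthlh and Tgfb2. Lypd6, a GPI-anchored modulator of WNT signalling, was at 25.8 and 25.1 CPM in control and 0.719 and 1.50 CPM in cKO members (log2 fold change -4.20, SE 0.37, adjusted p = 0.000131 with edgeR). Its relative Lypd6b was at 22.7 and 21.6 CPM against 1.44 and 2.50 CPM. Pthlh was at 24.2 and 30.3 against 1.44 and 2.50 CPM, and Zfp703, a zinc finger corepressor, at 20.8 and 19.7 against 2.88 and 2.50 CPM. Apobec2 was at 23.9 and 19.1 CPM in control, 0 in cKO 1 and 5.0 CPM in cKO 2. Tgfb2, a secreted ligand of the TGF-beta family, was at 52.7 and 53.2 against 6.47 and 8.99 CPM. The rule that named these genes asks for libraries that do not overlap, which 30.5% of all genes met in this direction.

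Among genes higher in cKO members, Cyp26b1 was at 20.9 and 25 CPM against 6.35 and 4.71 in control (log2 fold change 2.06, SE 0.25, adjusted p = 0.00088 with edgeR). Pcp4, a calmodulin-binding peptide gene, was at 18.0 and 42.5 CPM against 1.43 and 1.21. Rap2c, a small GTPase, was at 196 and 208 against 43.6 and 37.3, and the kinase gene Stk26 at 162 and 175 against 46.9 and 28.9. Both genes lie close together on chromosome X, Stk26 from 50841047 to 50893097 and Rap2c from 51003912 to 51018018. Whether their differences are linked was not tested. Krt19, a keratin of simple epithelia, was at 111 and 71.4 against 26.4 and 25.6. Rspo2, a secreted amplifier of WNT signalling, was at 15.1 and 11.5 CPM against 0.615 and 0.121. Nog, the BMP antagonist noggin, was at 18.0 and 7.99 CPM in cKO, 1.95 in control 1 and 0 in control 2.

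Gene lists were also read for the genotype difference within members. Of 13 retinoic acid genes 3 were higher in cKO members (Cyp26b1, Crabp1 and Crabp2) and 1 lower (Rxra, whose call was lost without control 1, adjusted p = 0.0784 with edgeR, or control 2, 0.193), and of 23 BMP pathway genes 3 were higher and 3 lower. Of 17 canal and lateral wall genes 6 were lower, among them Gata3 at 56.1 and 54.4 CPM against 132 and 109, and 2 higher, among them Prrx2 at 379 and 395 against 151 and 104. Of 23 actomyosin genes 8 were higher and 1 lower. Of 14 ventral and neurosensory genes 4 were lower and 0 higher, including Sox2 at 36.7 and 21.5 against 73.1 and 53.5 and Otol1, an otolith collagen gene, at 0.719 and 3.0 against 15.3 and 19.8 CPM. Without control 1 the Sox2 difference had an adjusted p of 0.0614 (edgeR). The background was 3.43% higher and 2.74% lower.

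**Figure D5:**
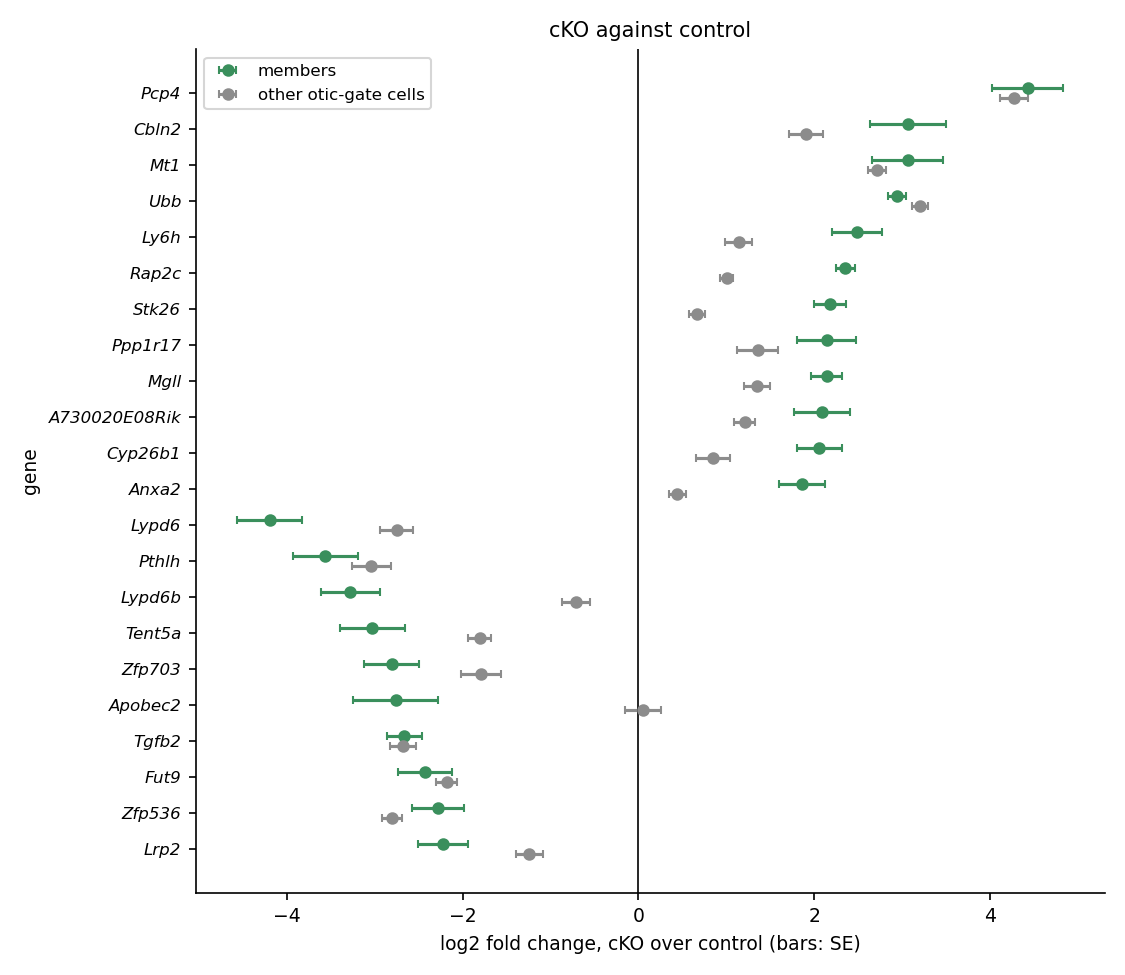
Log2 fold change of cKO over control with its standard error, in members and in other otic-gate cells, for genes with large differences in members. Pcp4, Ubb and Tgfb2 differ alike in both cell groups, while Apobec2 and Lypd6b lie much lower in members than in other cells.

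Because Aldh1a2-high members were nearly absent from the cKO libraries, the genotype comparison was repeated, after the data were examined, with only the members that had 0 Aldh1a2 UMIs. It called 364 genes higher and 321 lower, and 293 and 247 of these were called in the same direction over all members. Lypd6, Pthlh, Tgfb2 and Cyp26b1 kept their call, with log2 fold changes of -4.47, -4.02, -3.0 and 1.63. Lrp2 lost it, with a log2 fold change of -0.83 (SE 0.34, adjusted p = 0.175), from 11.3 and 12.6 CPM in Aldh1a2-undetected control members. Wnt6, higher by 0.77 over all members, was at 0.17 (SE 0.11, adjusted p = 0.405).

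Whether the genotype difference itself was another in members than in the rest of the otic gate was tested as an interaction, which called 262 genes more positive and 490 more negative in members, 5.19% of 14476 (1.81% more positive and 3.38% more negative). Control members had 106 and 95.6 CPM of Bmp4 and cKO members 151 and 174, against 34.5 and 32.7 and then 26.6 and 24.0 CPM in other cells (difference of log2 fold changes 1.03, SE 0.11, adjusted p = 1.15e-05 with edgeR). Msx2 and the BMP-induced gene Id1 had the same sign, at 1.36 and 0.72. With only members that had 0 Aldh1a2 UMIs, Msx2 was at 106 and 97.7 CPM in cKO and 99.2 and 78.5 in control members. Tbx1 was lower in both cell groups of cKO libraries and kept more of its level in members, where it was at 100 and 99.4 CPM against 40.2 and 26.9 in other cells (0.92, SE 0.13, adjusted p = 0.000219). Of 25 BMP pathway genes 5 were more positive in members and 0 more negative. Sfrp2, a secreted WNT modulator, was at 118 and 92.5 CPM in other cKO cells and 18.6 and 17.5 in other control cells, but at 11.5 and 13.5 against 15.4 and 17.4 CPM in members (-2.96, SE 0.21, adjusted p = 9.6e-08). Nr2f2, a nuclear receptor gene, was higher in members than in other cells of control libraries and lower in cKO libraries (-1.58, SE 0.13, adjusted p = 4.06e-07). Plxna4 fell in both cell groups, and its difference did not pass the test (0.46, SE 0.21, adjusted p = 0.236). DESeq2 called 355 genes in the interaction, among only 3809 that it tested, so this count is not on the same footing as that of edgeR.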

How the data were processed

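Single-cell RNA-seq of 4 libraries was analysed, 2 control and 2 cKO. The authors deposited raw UMI counts per gene and cell barcode, made with Cell Ranger 6.0.1 per the file headers, whereas version 3.1.0 of it, with FastQC 0.11.4, Seurat 4.1.0 and mm10, is listed per the submitters' processing notes. Groups were taken from the labels. Cells with at least 1000 genes and at most 10% mitochondrial UMIs were kept. Doublets were not removed in the main analysis, and Scrublet's own threshold marked at most 3 cells in a library. Counts were summed per library and cell group and tested with edgeR 4.0.16 (TMM factors, filterByExpr, quasi-likelihood, prior count 1, adjusted p under 0.05), in R 4.3.3. Gate genes were left out of every test, except Aldh1a2 where the gate did not use it, and Gata2, Bmp4 and Timp3 of every comparison between cell groups within a genotype. Levels are plain CPM, while fold changes use TMM factors. The script was tested on simulated data. Libraries held 106769747 to 128205192 UMIs, and the 36 and 53 cKO members limit the precision of the genotype comparison.

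The members and gene lists were chosen with earlier results of these data known. Named genes were, per comparison, the 12 largest rises and the 12 largest falls with an adjusted p under 0.05, a mean of at least 20 CPM in the higher group and no overlap between libraries, beside the gate genes, markers, Tbx1, Tbx2, Tbx3 and up to 4 called genes per list. Krt19, Rspo2 and other genes named outside that rule were chosen after their values were seen. The split by Aldh1a2, the gate without Aldh1a2 and the comparison of members with 0 Aldh1a2 UMIs were added after the data were examined. Alternatives were DESeq2 1.42.0, other size factors, no filter on low counts, other gates and depth windows, doublet removal, a replicate block and leaving out each library. A few genes that the rule or a list would name are not reported here, and the list counts leave them out.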

Additional observations from a re-analysis of the deposited data

Results flagged for a closer look

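For 6 named genes the cKO against control difference was not the same in members as in the other otic-gate cells, by edgeR's interaction test over 14476 genes with Benjamini-Hochberg adjustment. Those with a more positive difference in members were Msx2 (1.36 on the log2 scale, adjusted p = 3.12e-05), Bmp4 (1.03, adjusted p = 1.15e-05), Tbx1 (0.92, adjusted p = 0.000219) and Id1 (0.72, adjusted p = 2.29e-06). Those with a more negative one were Sfrp2 (-2.96, adjusted p = 9.6e-08) and Nr2f2 (-1.58, adjusted p = 4.06e-07). Msx2 was lower in other cKO cells, at 12.7 and 14.7 CPM against 23.7 and 27.7 in control, and higher in cKO members, at 98.5 and 93.9 against 70.3 and 58.1. Among members with 0 Aldh1a2 UMIs, Msx2 was at 106 and 97.7 CPM in cKO and 99.2 and 78.5 in control, a genotype difference that did not pass the test (0.21 on the log2 scale, adjusted p = 0.41), and the interaction was 0.96 (adjusted p = 0.0018, edgeR).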

How the results depend on the processing

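None of the 108 named gene values reversed direction while called, and among the settings tried 1163 values kept their side of the threshold, 24 lost a call and 2 gained one. The other 5 were the genotype difference of Tbx2 in members, which was not called and changed sign, to between 0.0038 and 0.18. DESeq2 called 833 genes for members against other otic-gate cells in control libraries, 1215 against Otx-positive cells, 1043 against remaining cells, 363 between genotypes in members, 355 in the interaction (69 more positive, 286 more negative) and 175 in the Aldh1a2 split. In the interaction it tested only 3809 genes, against 14476 with edgeR. With at least 3 selector UMIs, 1078 genes were called for members against other cells in cKO libraries, 360 between genotypes in members (237 higher, 123 lower) and 215 in the interaction (108 and 107). Without a filter on low counts 1274 were called between genotypes in members. Leaving out 1 library at a time gave 799 to 2489 genes for members against other cells in control libraries, 1198 to 2167 in cKO libraries, 331 to 1092 between genotypes in members, 2334 to 4098 in other cells and 305 to 589 in the interaction. The genotype left with 1 library was then assumed to vary like the other. It could not be done for comparisons that used only control libraries. With a replicate block 1075 genes were called between genotypes in members and 5271 in other cells. Same-numbered libraries were not paired in the main fits. Their deviations from the group means correlated at -0.014 in members and 0.019 in other cells. With 2 libraries per group both pairs must give the same value, so this cannot decide whether same-numbered libraries share a batch. The mean share of members in control libraries was 26.6% with at least 1 selector UMI, 12.3% with at least 3, 18.5% without the Otx and Rorb limits, 18.0% with doublets removed, 12.9% without Aldh1a2 in the gate and 7.57% after thinning. In cKO libraries it was 12.9% with at least 1 selector UMI, 1.83% with at least 3 and 0.74% after thinning. Without Aldh1a2 in the gate the share was 4.41% in cKO 1 and 3.96% in cKO 2. The causes of these shifts were not tested.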
